A study of Mus musculus with 15 samples.

Results

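Described here are 9 genes of the cell's defence against peroxides and superoxide in a mouse T helper clone: Srxn1, Prdx1, Prdx2, Txnrd1, Gclm, Gclc, Hmox1, Sod1 and Cat. The set was chosen by the measured pattern of Srxn1, whose rise after receptor stimulation persisted with cyclosporin A and was lost with a PKC inhibitor and with a mix of kinase inhibitors, so the Srxn1 values below are a description and support nothing beyond themselves. A member was read on every probe set whose annotation lists its symbol alone. That gave 20 of the 36701 probe sets, for 8 of the 9 members among 15964 genes. Prdx1 had 0 probe sets of its own, because the 3 that list it also list Gm21399. All 8 other members passed the limit for low signal given below, on 1 to 3 probe sets each.

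The cells were A.E7, a CD4 T helper clone, so all arrays come from a single clone, and the cell stock, culture and doses are not given in the sources used here. Each treatment was 1 pool of RNA from 2, 4 and 6 h, hybridised to the chip types A, B and C, which hold different probe sets, for 15 arrays in all. The groups were mock stimulated cells; cells given anti-TCR alone, which the titles call Anergic; anti-TCR with CSA (cyclosporin A), which blocks the phosphatase calcineurin; anti-TCR with a PKC inhibitor (PKCi) that is not named further; and anti-TCR with Rapamycin, PD98059 and SB203580 (Combo), which block mTOR, MEK and p38. There was no inhibitor without anti-TCR, and each chip type was run 1 time per treatment. Differences between treatments therefore come without replicates and without a test, and the pooled times cannot show when a gene moved.

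Peroxiredoxins reduce hydrogen peroxide with a cysteine that is itself oxidised, and thioredoxin, kept reduced by thioredoxin reductase, restores them. At high peroxide that cysteine can be overoxidised, and sulfiredoxin, the product of Srxn1, is the enzyme that repairs it. Glutathione forms a parallel system whose first step is catalysed by glutamate-cysteine ligase, and superoxide dismutase and catalase act on superoxide and peroxide directly. Many of these genes are known targets of the transcription factor Nrf2 at antioxidant response elements, which resemble the sites of AP-1, the factor family induced by T cell receptor signalling.

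Promoter sequence is shown for Srxn1, the member that rose, for its substrate gene Prdx1, and for Prdx2, a member that fell, because these differ in the motifs they hold. Each is the 250 bases before the transcription start in RefSeq on build GRCm38.p6, plus strand, at chr2:152105274-152105523, chr4:116685349-116685598 and chr8:84969372-84969621, printed 5′ to 3′ with motif matches in capitals.
Srxn1: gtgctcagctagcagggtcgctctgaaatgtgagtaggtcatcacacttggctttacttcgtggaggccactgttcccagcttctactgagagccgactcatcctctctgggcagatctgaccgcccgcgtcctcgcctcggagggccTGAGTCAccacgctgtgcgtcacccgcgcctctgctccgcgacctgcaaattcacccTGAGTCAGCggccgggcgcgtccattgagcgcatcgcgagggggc
Prdx1: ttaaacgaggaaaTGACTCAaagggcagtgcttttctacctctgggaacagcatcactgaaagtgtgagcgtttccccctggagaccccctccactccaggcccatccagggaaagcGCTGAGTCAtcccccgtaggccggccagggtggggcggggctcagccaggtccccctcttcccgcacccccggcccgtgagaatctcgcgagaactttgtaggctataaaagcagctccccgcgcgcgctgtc
Prdx2: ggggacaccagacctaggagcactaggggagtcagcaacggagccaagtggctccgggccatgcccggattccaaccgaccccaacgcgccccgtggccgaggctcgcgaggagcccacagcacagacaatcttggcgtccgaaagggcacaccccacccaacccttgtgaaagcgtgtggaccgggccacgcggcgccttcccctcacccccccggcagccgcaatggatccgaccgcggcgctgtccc
The motifs searched, on both strands, were the AP-1 site TGAGTCA, which reads TGACTCA on the other strand, the longer site TGANTCAGC that small Maf proteins and their partners also bind, and the antioxidant response element core TGACNNNGC; a stretch can match more than 1 of them. The Srxn1 window held 2 AP-1 matches, at 102 to 96 and 45 to 39 bases before the start, and the second lay within a match to the longer site that ended 37 bases before it. The Prdx1 window also held 2 AP-1 matches, at 237 to 231 and 131 to 125 bases before the start; the second lay within a stretch at 133 to 125 that matched both longer motifs on the other strand. The Prdx2 window matched none of the 3. Among the 32851 windows of this length in the table, 4.46% held the AP-1 site, 0.167% held 2 or more, 1.02% held the longer site and 10.2% the antioxidant core. Of the 7 members with a window, those 2 alone matched the AP-1 site, while Gclm, Sod1 and 1 of 3 Txnrd1 starts had a match to the antioxidant core and Cat had none of the 3. A match is a stretch of letters and was not tested for binding.

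Intensities are linear and in the arrays' own units. Each chip type has a floor, its overall median intensity (51.1 for A, 69.5 for B and 55 for C), and whatever lay under it was set to it before ratios were taken, and a ratio with such a value is given as "at least". A probe set counts as measured in a comparison where at least 1 of both values came to 4 times the floor (204.4, 278 and 220), called the limit below. The words rose and fell are kept for a gene whose brightest probe set was measured and at least 2-fold apart. Array medians ran from 46.95 to 70.8, and 17.4% to 23.0% of the probe sets on an array came to the limit. The only error the design holds is technical, from genes with probe sets on more than 1 chip type: over 1095 to 1191 pairs the SD of a log2 ratio was 0.75 with anti-TCR relative to mock, and, relative to anti-TCR, 0.48 with CSA, 0.71 with PKCi and 0.55 with Combo. A letter suffix on a probe set marks one that the array's design allowed although its probes are shared with other sequences or fewer than usual. Of 11 T cell identity genes on the arrays 10 were bright, among them Cd3e, Cd4 and Thy1, while Cd5 stayed under the floor on all arrays. Of 11 B cell and 9 erythroid or neutrophil markers 0 were bright, and of 14 macrophage and dendritic markers 2 were (Ctss and Cd14). Of 6 CD8 T and NK markers Klrd1 and Klrk1 were bright and Cd8a was under the floor. The summed level moved with anti-TCR from 2443 to 1360 for the macrophage list, from 5180 to 2096 for the CD8 T and NK list and from 13369 to 11743 for the T cell list. With the inhibitors it lay at 1119 to 1634, 2340 to 2925 and 8750 to 11332. Ctss (1583 to 515) made up most of the change in the macrophage sum. Klrd1 (4063 to 1594) and Klrk1 (1099 to 483) made up that of the CD8 T and NK sum, so neither sum describes its list as a whole. The part of these lists in the results below was not tested. In such bulk RNA, fewer cells that express a gene and less RNA per cell cannot be told apart.

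With anti-TCR alone, 1 of the 8 measured members rose (Srxn1) and 2 fell (Prdx2 and Sod1). Over all 5803 measured genes 11.4% rose and 13.9% fell. The Srxn1 values in this contrast chose the set, so nothing is read from that comparison of shares. The median log2 ratio of the members was -0.29, against -0.08 for all measured genes, and their range ran from -1.79 to 4.97. Srxn1 was the only member past 2-fold upwards, and both others past 2-fold were lower.

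**Figure D1:**
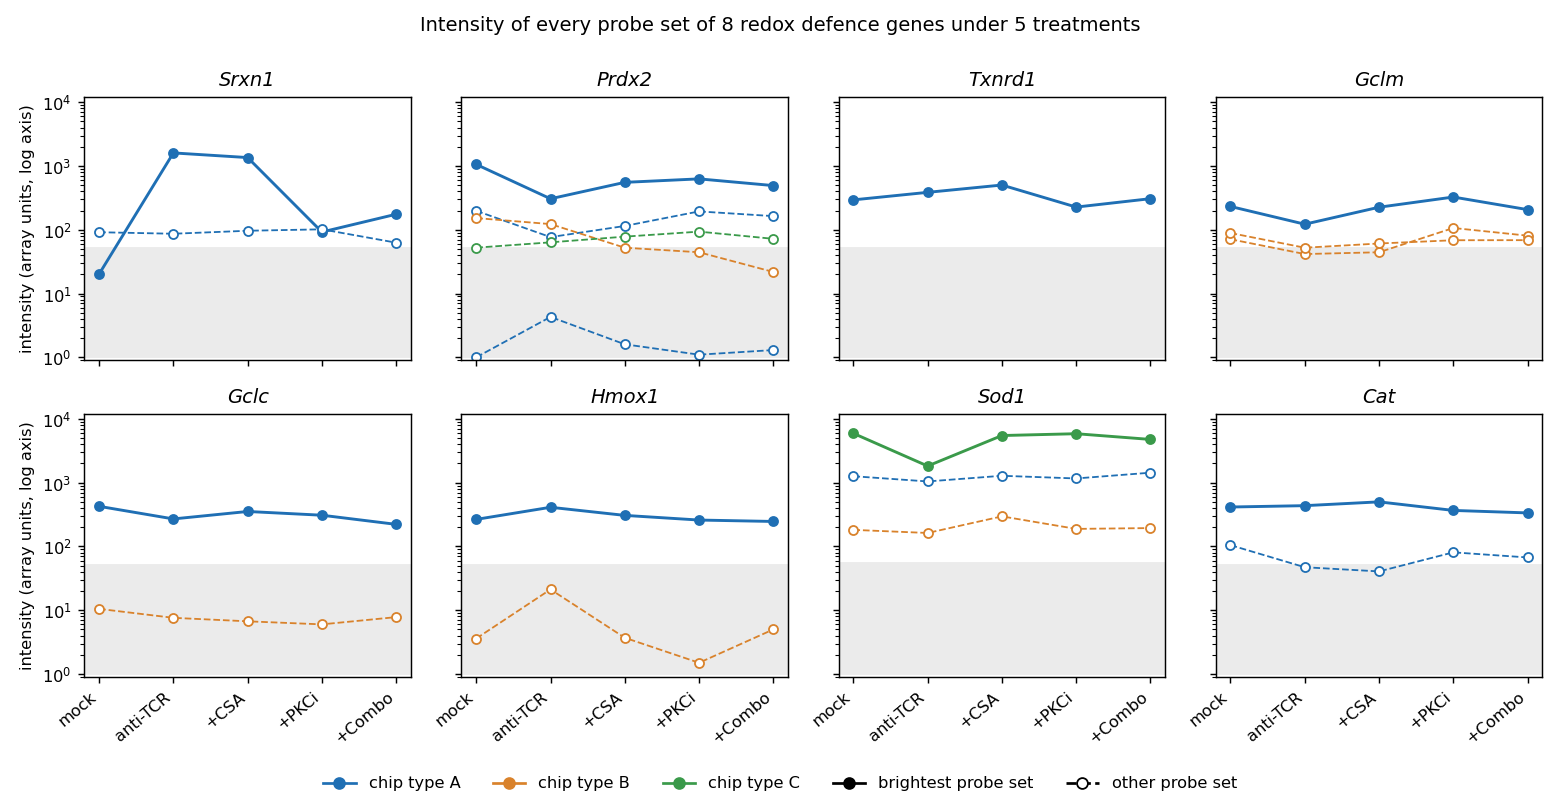
Intensity (log axis, array units) of all 20 probe sets of the 8 readable genes under the 5 treatments. Each point is 1 array, coloured by chip type, and filled points are the brightest probe set of a gene. The grey area lies under the floor of the chip type of that brightest probe set. Points of other chip types can lie above the grey though under their own floor. Srxn1 at 1602 with anti-TCR and 1355 with CSA stands above its other 3 values, which lie between 20.2 and 175.

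Srxn1, the sulfiredoxin that repairs overoxidised peroxiredoxins, had the widest range of the members. On chip type A its brightest probe set read 20.2 with mock, 1602 with anti-TCR, 1355 with CSA, 92.2 with PKCi and 175 with Combo. The anti-TCR and CSA values were high and close together, mock was under the floor, and the PKCi and Combo values lay above the floor but under the limit for a measured signal. Srxn1 was thus at least 31.4-fold higher with anti-TCR than with mock (a log2 ratio of 4.97 against the floor). CSA against anti-TCR was -0.24 in log2, inside the technical spread of 0.48, and CSA was at least 26.5-fold above mock. With PKCi the gene fell 17.4-fold (log2 ratio -4.12) and with Combo 9.15-fold (-3.19). Of the log2 induction 95.1% was left with CSA, 17.1% with PKCi and 35.8% with Combo; these shares depend on the floor that stands in for mock. The PKCi and Combo values were 1.80 and 3.43 times the floor, so a residue over mock was seen on a dim signal only. Of the 659 genes that rose, 87 (13.2%) had the same pattern by the 2-fold rule, within 2-fold of anti-TCR with CSA and at least 2-fold lower with both other arms.

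All of this rests on 1 probe set. The other Srxn1 probe set, i-suffixed and also on chip type A, read 91.5, 86.6, 96.5, 102 and 62.7 in the same order and never reached the limit. Its values were level and dim, so it neither shows the rise nor measures its absence. 

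**Figure D2:**
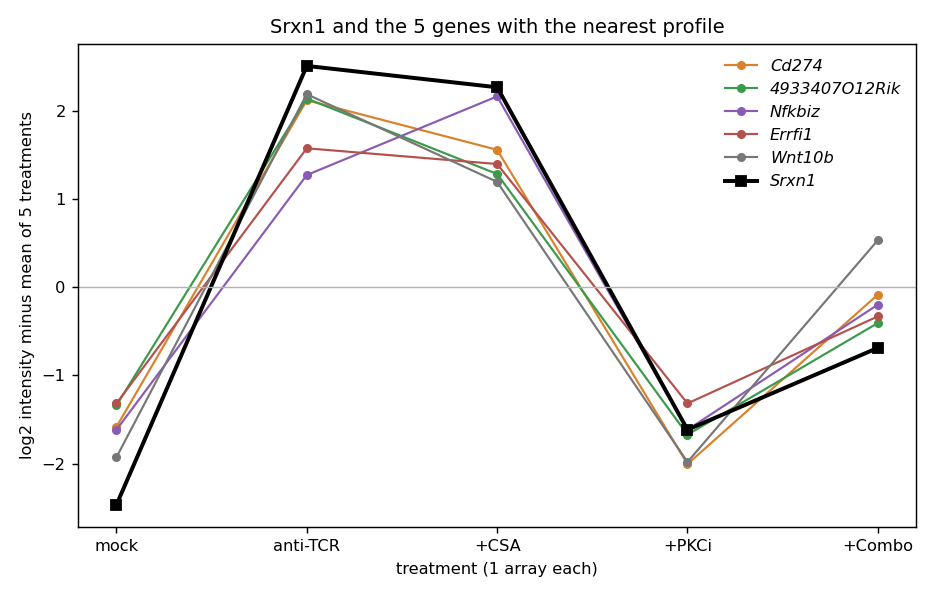
Profiles of Srxn1 (black squares) and of the 5 genes nearest to it, as log2 intensity with low values raised to the floor, minus the mean of the 5 treatments (1 array each). All 6 are high with anti-TCR and CSA and low with mock and PKCi; with Combo Wnt10b lies above its own mean and the other 5 genes lie below theirs.

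The genes with the profile most like that of Srxn1 were sought among 6336 other genes, as the smallest Euclidean distance between the 5 centred log2 values. The nearest were Cd274 (distance 1.40), 4933407O12Rik (1.57), Nfkbiz (1.58), Errfi1 (1.78) and Wnt10b (1.78), against a median distance of 4.61 over all genes compared. Cd274 encodes the inhibitory ligand PD-L1; on chip type B it read 172 with mock, 2229 with anti-TCR, 1510 with CSA, 128 with PKCi and 485 with Combo. Nfkbiz, an inducible nuclear regulator of NF-kB targets, read 35, 378, 700, 36.5 and 137, and so was brighter with CSA than with anti-TCR alone. Its mock and PKCi values were under the floor, and its other probe sets were under the floor on every array. Errfi1, a feedback inhibitor of growth factor receptors, had a second bright probe set that moved the same way as the first. For anti-TCR against mock they read at least 2.29 and at least 2.89 in log2, with mock under the floor on each. Wnt10b, a secreted Wnt ligand, was read on an i-suffixed probe set (4.11 for anti-TCR against mock, and 4.15 on an f-suffixed one). With CSA against anti-TCR it read -0.99 on the first, just inside 2-fold, but -1.37 on the f-suffixed one and -1.15 on a dim s-suffixed one, so its likeness to Srxn1 under CSA depends on the probe set. The remaining gene, 4933407O12Rik, had a single probe set, as did Cd274. With 5 values per gene and 1 array each, this likeness is a description.

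Among the peroxiredoxins, Prdx2, a cytosolic enzyme abundant in blood cells, fell with anti-TCR. Its brightest probe set, g-suffixed, read 1059 with mock, 306 with anti-TCR, 554 with CSA, 628 with PKCi and 493 with Combo. Mock was the highest and anti-TCR the lowest, with the inhibitor arms between. The fall was 3.46-fold (log2 ratio -1.79). It was 2.05-fold higher with PKCi than with anti-TCR alone, just past 2-fold and short of it after quantile normalization (0.95 in log2), and read 0.86 with CSA and 0.69 with Combo in log2, which does not pass. All 3 arms stayed below mock, by -0.93, -0.75 and -1.10 in log2.

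The other 4 Prdx2 probe sets never reached the limit. On 1 of them, without suffix and on chip type A, the values were 198, 76.7, 115, 194 and 164, the same order for mock and anti-TCR. On chip type B another read 153, 123, 52.3, 44.4 and 21.8, lowest with Combo, and on chip type C the third read 52.4, 63.5, 78, 93.5 and 72.1. The fourth was at 4.3 or less on every array. Past 2-fold, lower values with anti-TCR than with mock were thus seen on chip type A only. Prdx1, the closest relative of Prdx2, can be given only together with Gm21399: the bright shared probe set without suffix on chip type A read 1860, 1584, 1623, 989 and 1730, the s-suffixed one 2140, 1547, 1556, 1112 and 1629, and that on chip type C 234, 273, 244, 258 and 364. This joint signal lay within 2-fold of mock under anti-TCR on all 3 (-0.47 to 0.22 in log2) and was lowest with PKCi on the 2 of chip type A.

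Txnrd1, the cytosolic selenoenzyme that reduces thioredoxin, was measured in all 4 comparisons and came to 2-fold in none. Its only probe set read 294 with mock, 386 with anti-TCR, 503 with CSA, 227 with PKCi and 307 with Combo. It was highest with CSA and lowest with PKCi. In log2 it read 0.39 for anti-TCR against mock, then 0.38, -0.77 and -0.33 for CSA, PKCi and Combo against anti-TCR; the PKCi value lies just outside the technical SD of 0.71.

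The ligase that makes glutathione has a catalytic subunit, Gclc, and a modifier subunit, Gclm. Gclm read 232 with mock, 122 with anti-TCR, 226 with CSA, 326 with PKCi and 207 with Combo. It was lowest with anti-TCR, where it lay under the limit, and highest with PKCi. The ratio of anti-TCR to mock, -0.92 in log2, stopped just short of 2-fold. Gclm rose 2.67-fold with PKCi over anti-TCR alone (log2 ratio 1.42) and read 0.89 with CSA and 0.76 with Combo. Its 2 probe sets on chip type B never reached the limit; they read 52.3 and 41.6 with anti-TCR, under the floor and the lowest of their 5 values, against 88.9 and 71 with mock. Averaged with these, Gclm no longer passed with PKCi, and it was too dim to count as measured at a minimum of 8 times the floor.

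Gclc read 426, 270, 353, 309 and 222 from mock to Combo on chip type A. It was highest with mock and lowest with Combo, with no ratio past 2-fold in the 4 comparisons (-0.66, 0.39, 0.19 and -0.28). Its probe set on chip type B was at 10.5 or less throughout. Neither subunit rose with anti-TCR, and with PKCi Gclm read above its mock value and Gclc below.

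Hmox1, the inducible haem oxygenase and a classical Nrf2 target, read 266 with mock, 411 with anti-TCR, 307 with CSA, 259 with PKCi and 246 with Combo. It had its highest value with anti-TCR, as Srxn1 did, but 1.55-fold above mock (0.63 in log2), inside the technical spread. Against anti-TCR it read -0.42 with CSA, -0.67 with PKCi and -0.74 with Combo, of which the Combo value lies outside the technical SD of 0.55; PKCi and Combo lay near mock (-0.03 and -0.11). The probe set on chip type B was under the floor on every array.

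Sod1, the cytosolic copper-zinc superoxide dismutase, came to the limit on every array of chip types A and C, but passed 2-fold on C alone. The f-suffixed probe set on chip type C, its brightest, read 5930 with mock, 1824 with anti-TCR, 5481 with CSA, 5853 with PKCi and 4763 with Combo. The anti-TCR array alone was low there, a fall of 3.25-fold (-1.70 in log2), and the 3 arms were 3.01-fold, 3.21-fold and 2.61-fold above it, within -0.32 of mock. On chip type A the values were 1262, 1045, 1282, 1164 and 1434, with -0.27 for anti-TCR against mock, and on chip type B 182, 163, 296, 188 and 194, where the CSA array alone came to the limit. Anti-TCR was the lowest of the 5 on all 3 chip types, but the size past 2-fold came from the suffixed probe set only. The f suffix marks probes shared by a sequence family, so other transcripts may contribute to it.

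Cat, the peroxisomal catalase, was level on its bright probe set. This f-suffixed one read 415, 436, 500, 367 and 336, with ratios of 0.07, 0.20, -0.25 and -0.38. The other, without suffix, read 105, 47.2, 40.6, 80.8 and 67.2 and never reached the limit. It was highest with mock, and its anti-TCR and CSA values were under the floor.

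**Figure D3:**
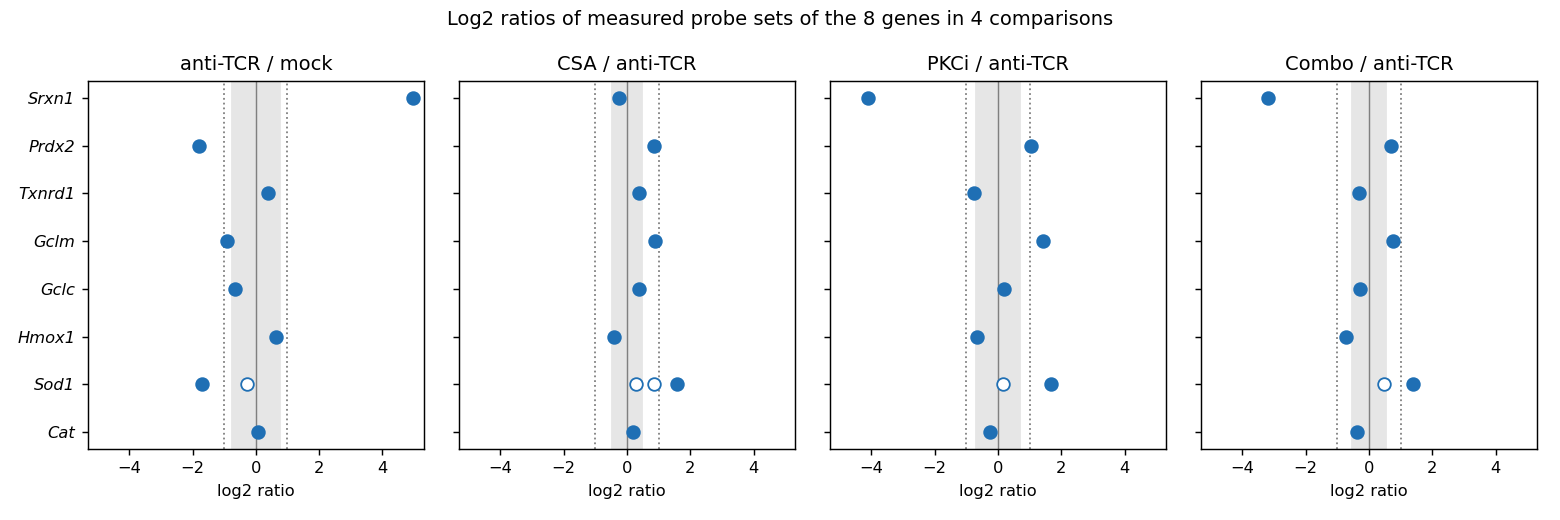
Log2 ratios of the measured probe sets of the 8 genes in the 4 comparisons; filled points are the brightest probe set of a gene and open points further ones, dotted lines mark 2-fold and the grey band is the technical SD of that comparison. Srxn1 lies at 4.97, -0.24, -4.12 and -3.19, and the filled and open Sod1 points lie apart.

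Against anti-TCR alone, CSA gave 1 member higher (Sod1) and 0 lower of 8, where 4.84% of the 5453 measured genes were higher and 5.34% lower. PKCi gave 3 higher (Prdx2, Gclm and Sod1) and 1 lower (Srxn1) of 8, against 14.3% and 9.75% of 5793 genes. Combo gave 1 higher (Sod1) and 1 lower (Srxn1) of 8, against 7.95% and 5.46% of 5621 genes. The Srxn1 values under CSA, PKCi and Combo also chose the set, so its place in the lower counts was fixed in advance. Nothing is read from the shares of lower genes. The member medians were 0.38, -0.03 and -0.31 in log2, and those of all measured genes 0.03, 0.03 and 0.02. All 4 comparisons share the anti-TCR arrays, so a low or high anti-TCR value turns up in each of them; Sod1 on chip type C is such a case. When all probe sets of a gene were averaged, Sod1 and Prdx2 no longer passed in any comparison. With suffixed ones left out, Sod1 was measured and did not pass (-0.27 for anti-TCR against mock), while Prdx2 was too dim to count as measured. That dim Prdx2 probe set read -1.37 for anti-TCR against mock, and 0.58, 1.34 and 1.09 with CSA, PKCi and Combo against anti-TCR. Srxn1 passed in the same 3 as before under both settings.

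The rest of the redox system was read through lists of 91 further genes, of which 83 were on the arrays. Over all measured genes 11.4% rose and 13.9% fell with anti-TCR. Against anti-TCR, 4.84% were higher and 5.34% lower with CSA, 14.3% and 9.75% with PKCi, and 7.95% and 5.46% with Combo. These shares belong beside the counts of each list, which are small and are given as a description only. Among other peroxiredoxins, thioredoxins and glutaredoxins, 0 of 8 measured genes rose with anti-TCR and 2 fell, Glrx (3.25-fold), the cytosolic glutaredoxin, and Txnip (3.05-fold, s-suffixed), which binds and inhibits thioredoxin. The median was 0.15 in log2. Txnip read 2267 with mock, 744 with anti-TCR, 1445 with CSA, 1083 with PKCi and 1523 with Combo, and so rose with Combo over anti-TCR (2.05-fold). Glrx read 876, 270, 367, 552 and 222, and so rose with PKCi (2.05-fold) and stayed low with Combo. Thioredoxin itself, Txn1, read 2596, 1916, 2262, 1624 and 2051, with -0.44 for anti-TCR against mock. Prdx3, the mitochondrial peroxiredoxin, fell 2.02-fold with PKCi, from 342 to 170. Prdx4, the peroxiredoxin of the secretory pathway, gave opposite readings: 0.22 for anti-TCR against mock on chip type C and -1.44 on chip type A, where PKCi and Combo against anti-TCR read 1.23 and 1.05. The highest with anti-TCR were Txnrd3 (0.81, r-suffixed) and Txn2 (0.40). For CSA, PKCi and Combo against anti-TCR the list gave 0, 1 and 1 genes higher and 0, 1 and 0 lower, of 8.

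**Figure D4:**
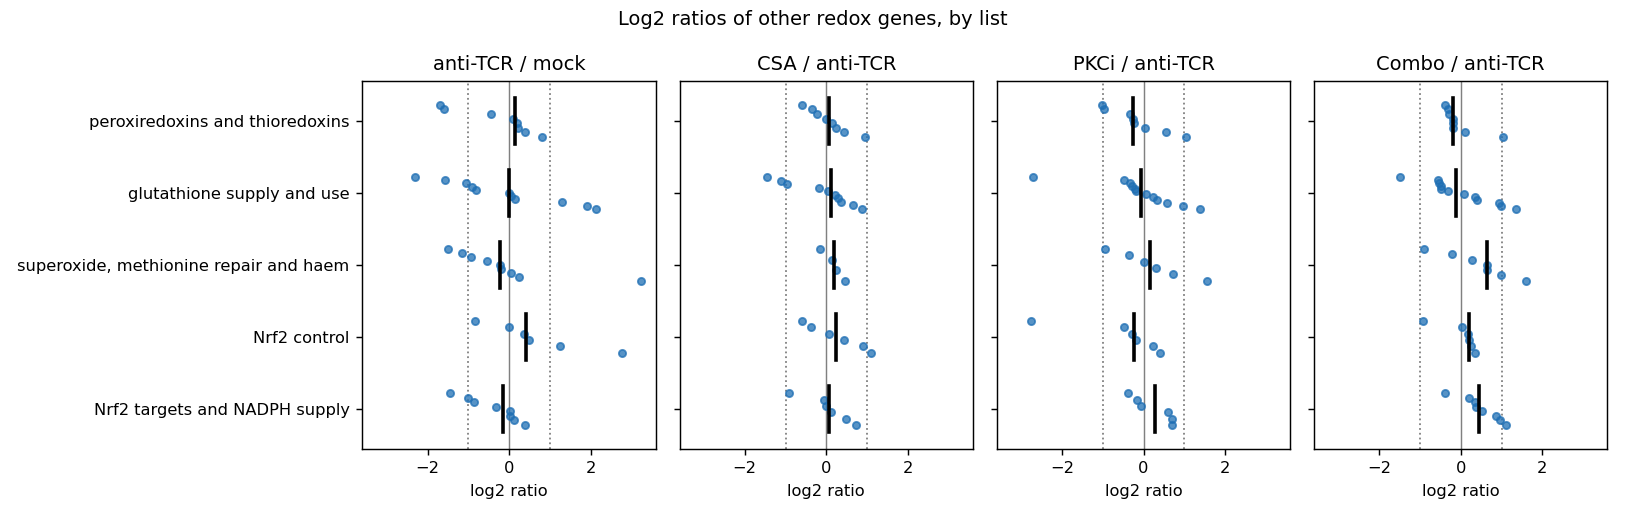
Log2 ratios of the measured genes of 5 lists of other redox genes in the 4 comparisons, 1 point per gene on its brightest probe set, with the list median as a black bar and 2-fold as dotted lines. Every list median lies between -0.25 and 0.65, with single genes such as Oxsr1 at 3.23 and Chac1 at -2.71 far from it.

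Of 11 measured genes of glutathione supply and use, 3 rose with anti-TCR and 3 fell (median -0.01). Slc3a2, the heavy chain of the cystine and amino acid transporters, rose 4.37-fold, from 694 to 3033, although a dim probe set on chip type C went the other way (115 to 29.9, and 224 with Combo). Chac1, which degrades glutathione and is a target of the amino acid response, rose 3.77-fold and Gstm2, a glutathione transferase, 2.46-fold (0.06 on an r-suffixed probe set). The transferase Mgst2 fell 4.96-fold, the methylglyoxal enzyme Glo1 2.98-fold (a second probe set gave -1.52 beside -1.58) and Gpx4, the peroxidase for membrane lipid peroxides, 2.08-fold.

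Chac1 met the 2-fold rule for the Srxn1 pattern, though only narrowly with CSA. It read 155 with mock, 585 with anti-TCR, 302 with CSA, 89.2 with PKCi and 208 with Combo, a fall of 6.56-fold with PKCi and 2.81-fold with Combo against anti-TCR. With CSA it read -0.95 in log2, just inside 2-fold of anti-TCR. The list gave 0 higher and 2 lower of 10 with CSA (Gstm2 and Slc3a2). Each of these rests on 1 probe set. The r-suffixed one of Gstm2 read -0.18 with CSA, and the dim one of Slc3a2 was under the floor with anti-TCR and with CSA. With PKCi the list gave 1 and 1 of 12 (Glo1 higher 2.62-fold, Chac1 lower). With Combo it gave 1 and 1 of 12 (Gsto1 higher 2.56-fold, Chac1 lower). Gsr, which recycles oxidised glutathione, read 240, 247, 455, 257 and 261; its CSA value was high but short of 2-fold (0.88). Hagh, which acts after Glo1, read 0.98 with PKCi.

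Of 9 measured genes of superoxide, methionine repair and haem handling 1 rose with anti-TCR and 2 fell (median -0.22). Oxsr1, a stress-responsive kinase, rose at least 9.38-fold, from 19.9 to 516, and read 710 with CSA, 269 with PKCi and 278 with Combo. Like Srxn1 it was high with CSA, but its PKCi and Combo values, -0.94 and -0.89 against anti-TCR, did not pass 2-fold. Msrb1, a selenoenzyme that repairs oxidised methionine, fell 2.82-fold, from 312 to 111, and was 2.96-fold and 3.04-fold higher with PKCi and Combo. Ncf4, a subunit of the phagocyte oxidase, fell 2.22-fold, and Hmox2, the constitutive haem oxygenase, gave readings that differ, 0.24 on its brightest probe set, -0.08 on another and -1.13 on an i-suffixed one. Msrb1 was the only call of the list in the PKCi (6 measured) and Combo (7 measured) comparisons, where Park7 stopped just short of 2-fold with Combo (120 with anti-TCR, 239 with Combo), and with CSA 0 of 4 passed, with Oxsr1 at 0.46, Cyba at 0.24, Fth1 at 0.13 and Hmox2 at -0.15. Fth1, the ferritin heavy chain, has 4 further bright probe sets that disagree: with CSA they read from -2.03 (r-suffixed) to 0.44, and with PKCi from -0.57 to 2.08 (f-suffixed).

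Among 6 measured genes that control Nrf2, 2 rose with anti-TCR and 0 fell (median 0.42). Maff, a small Maf protein that pairs with Nrf2 family factors, read 41.1 with mock, 472 with anti-TCR, 1003 with CSA, 34.2 with PKCi and 248 with Combo. It rose at least 6.79-fold with anti-TCR, rose a further 2.13-fold with CSA, and fell at least 6.79-fold with PKCi to under the floor; with Combo it read -0.93. As with Srxn1, the anti-TCR and CSA values were the high ones, but here CSA lay above anti-TCR. Sqstm1, the autophagy receptor p62 that binds Keap1, rose 2.37-fold, from 362 to 857, and read 563, 1134 and 986 with CSA, PKCi and Combo. Against anti-TCR it read 0.40 in log2 with PKCi and 0.20 with Combo, inside the technical SDs of 0.71 and 0.55. Cul3, the ligase scaffold that acts with Keap1, read -0.82 on its brightest probe set and from -0.41 to 0.27 on 3 others, of which 1 read 1.07 with CSA. Nfe2l1, an Nrf2 relative, was level (0.01), Mafg read 0.37 on its brightest probe set and 0.74 and 1.24 on 2 dimmer ones, and Mafk 0.48 with anti-TCR and -0.48 with PKCi.

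Of 8 measured Nrf2 targets and enzymes of NADPH supply 0 rose with anti-TCR and 2 fell (median -0.15). Taldo1, an enzyme of the pentose phosphate pathway, fell 2.72-fold, from 273 to 101, and Nqo2, a quinone reductase, 2.02-fold. The highest were Pgls (0.40), of the same pathway, and the glutathione conjugate exporter Abcc1 (0.13). With CSA and PKCi 0 of 6 passed in either direction, with Ugdh at -0.92 and Me2 at 0.72 under CSA and Tigar at -0.39 and Pgls at 0.71 under PKCi. A second, g-suffixed probe set of Me2, the mitochondrial malic enzyme, was past 2-fold, at -2.34 for anti-TCR against mock, 1.85 with CSA and 1.66 with PKCi, where the brightest read -0.86, 0.72 and 0.70. With Combo 1 of 8 was higher, Taldo1 (2.14-fold), followed by Tkt (0.96).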

How the data were processed

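Each treatment was 1 RNA pool read on 3 oligonucleotide chip types, with values in the authors' deposited tables as linear intensity; the sources used here do not say how these deposited intensities were computed or scaled, and no detection calls were used. Samples were grouped by array title. Gene symbols came from GEO's platform annotation: 29131 probe sets carry 1 symbol, 724 several and 6846 none, and the last 2 kinds were not used for genes. Of several probe sets the one with the highest mean over the 5 treatments stands for a gene. With single arrays, ratios carry no p-value. The technical SD is the SD of differences in log2 ratio between a gene's measured probe sets on 2 chip types, over the square root of 2. Named are all members on all probe sets, of each list genes among the 2 highest and 2 lowest of a comparison, and the 5 genes nearest to Srxn1; Gpx4 and single cell type markers were named after their values were seen. Members and lists were chosen with earlier results of these data known. Promoters came from a RefSeq table (7 of 9 members matched). The gene steps (Python 3.11.15, numpy 2.4.6, pandas 2.3.3) were tested on simulated data. The planted changes were all larger than 2-fold and in bright genes, with less noise than the technical SD. That test therefore does not cover calls near 2-fold or on dim probe sets. Alternatives were median scaling, quantile normalization, 0.5 and 2 times the floor, minima of 2 and 8 times the floor, averaging all probe sets of a gene, and leaving out suffixed ones.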

Additional observations from a re-analysis of the deposited data

How the results depend on the processing

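Under median scaling, quantile normalization, 0.5 and 2 times the floor and minima of 2 and 8 times the floor, the counts of members at least 2-fold higher or lower stayed within 1.5 times those reported in all 4 comparisons. The count higher with PKCi went from 3 to 2 of 8 under quantile normalization, where Prdx2 read 0.95, against 13.9% of all genes. At 8 times the floor, where Gclm was no longer measured, it was 2 of 5 measured members, against 14.4% of all genes. Averaging all probe sets of a gene, which lets dark ones in, gave 0 members lower with anti-TCR in place of 2, and 0 higher with CSA, PKCi and Combo in place of 1, 3 and 1; over all genes the shares also dropped, to 8.48% lower with anti-TCR and 2.81%, 9.2% and 4.65% higher with CSA, PKCi and Combo. Leaving out suffixed probe sets (6 members measured) gave 0 lower with anti-TCR and 0, 1 (Gclm) and 0 higher with CSA, PKCi and Combo. Over all genes the shares were then 14.5% lower with anti-TCR and 4.91%, 15% and 8.51% higher with CSA, PKCi and Combo. Srxn1 was called higher with anti-TCR and lower with PKCi and Combo in every setting. These calls are the pattern that chose the set, so their constancy lends it no support. With mock under the floor, the Srxn1 log2 ratio for anti-TCR ran from 3.97 (2 times the floor) to 5.97 (0.5 times the floor). Averaging its bright probe set with the dim, level one gave 2.45. Of 237 single ratios recomputed, 220 moved by less than the technical SD, 17 by more, and 0 called ratios changed sign. Many of the 220 could not move. A change of minimum leaves every ratio as it was, and 0.5 or 2 times the floor alters only those of Srxn1. The count of 220 is therefore no measure of stability. No paired analysis was possible because each treatment has 1 array per chip type. Signal over background limits the reading: 10 of the 20 member probe sets never reached 4 times the floor, and 3 of those were at or under the floor on all 5 arrays.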
